A study of Mus musculus with 14 samples.

Results

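The 10 genes studied here are ones that dendritic cells switch on when they mature and leave a tissue for the lymph node and they were followed cell by cell in mouse melanomas. They are Ccr7, Fscn1, Marcksl1, Cd63, Tmem123, Samsn1, Cacnb3, Socs2, Anxa3 and Il4i1, chosen by name from the 21205 genes of the deposited UMI table. All 10 had a column in that table. The cells were sorted as type 1 conventional dendritic cells (cDC1) from subcutaneous YUMM1.7 tumours, a mouse melanoma line, grown in female mice. The 555 cells came from 14 plates, and each plate was 1 tumour of 1 mouse. Irf1_dXCR1 mice gave 5 plates and 223 cells, with Irf1_FF mice as their controls (4 plates, 165 cells). Ikbkb_dXCR1 mice gave 4 plates and 133 cells, and their control group Ikbkb_FF was a single plate of 34 cells.

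The labels name the dXCR1 and FF genotypes without saying which promoter drives the targeting. Every Irf1 plate came from experiment M3 and from mice of 6 weeks, and every Ikbkb plate from experiment M2. Of the Ikbkb plates, Ikbkb_FF and replicates 1 and 2 of Ikbkb_dXCR1 were from mice of 8 weeks, and replicates 3 and 4 from mice of 6 weeks. Experiment and targeted gene therefore cannot be told apart. Plates held 18 to 59 cells and 2810321 to 10120557 UMIs. The median cell had 143476 UMIs from 1578 genes. The Irf1 transcript averaged 227 ± 108 CPM in Irf1_dXCR1 plates and 341 ± 100.1 CPM in Irf1_FF plates (SD, n = 5 and 4), and the groups overlapped (log2 fold change -0.59 ± 0.38, SE, adjusted p = 0.685, edgeR quasi-likelihood test). The Ikbkb transcript averaged 239 ± 87.8 CPM in Ikbkb_dXCR1 plates (SD, n = 4) and 291 CPM in the Ikbkb_FF plate. The protocol tags the 5′ end of a transcript, so a deletion downstream of that end need not lower these values, and they are no check of the labels.

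Immature dendritic cells take up antigen in a tissue, and maturation turns them into cells that present it and move to the draining lymph node. Ccr7 is the chemokine receptor that guides them along CCL19 and CCL21 gradients into lymphatic vessels and the T cell zone. The other genes cover different sides of the same state. Fscn1 (fascin) bundles actin in the dendrites of mature cells, and Marcksl1 binds actin and calmodulin at the membrane. Cd63 is a tetraspanin of late endosomes and secretory vesicles. Tmem123, also called porimin, is a membrane glycoprotein. Samsn1 is an adaptor that dampens lymphocyte signalling, Socs2 restrains cytokine signalling through STAT proteins, and Cacnb3 is the beta subunit of voltage-gated calcium channels. Anxa3 is a calcium-dependent phospholipid-binding annexin. Il4i1 is a secreted amino acid oxidase that dampens T cell responses.

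Of the 10 genes, 9 were detected in all 14 plates. Il4i1 was the exception: it had 68 UMIs in 1 cell, which came from replicate 4 of Irf1_dXCR1 and also held Ccr7 and Fscn1. Exons of Il4i1 (chr7:44816387-44840809, GRCm38, + strand) overlap those of Nup62 on the same strand and of Tbc1d17 and Atf5 on the opposite one. Nup62 had a UMI in 77 cells, Tbc1d17 in 65 and Atf5 in 8. How reads of shared exons were counted is not given in the sources used here, so the Il4i1 value is uncertain and no fold change is given for it.

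Among the rest, Cd63 was found in the most cells (247, or 44.5%) and Anxa3 in the fewest (87, or 15.7%). Ccr7 had a UMI in 170 cells (30.6%), Tmem123 in 173, Samsn1 in 161, Fscn1 in 134, Cacnb3 in 129, Socs2 in 104 and Marcksl1 in 101. Where a gene was found, its count was usually high. The median count in cells with the gene ran between 62 UMIs for Fscn1 and 407.5 UMIs for Ccr7. With UMIs of 5 bases the number of different tags is limited for every gene, so the highest counts are understated. The highest counts of the set were those of Cd63 (958 UMIs) and Ccr7 (945 UMIs).

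The detection of these genes was spread very unevenly over cells. No gene of the set was found in 184 cells (33.2%), 1 or 2 in 197 cells (35.5%), 3 to 6 in 95 cells (17.1%), and 7 to 10 in 79 cells (14.2%). The median depth was 144729 UMIs in cells with none, 147466 UMIs with 1 or 2, 130820 UMIs with 3 to 6 and 142275 UMIs with 7 or more. Cells with 7 or more made up 13.6, 5.41, 17.2, 18.4 and 22.4% of replicates 1 to 5 of Irf1_dXCR1. Irf1_FF plates held 4.65, 17.5, 12.9 and 15.7%. Ikbkb_dXCR1 plates held 11.1, 7.69, 15.8 and 19.6%, and the Ikbkb_FF plate 8.82%. Every plate thus had cells with 7 or more of the genes, and the genotypes overlapped in this share.

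The cells were clustered without the 10 genes, so that their detection could be read against clusters they had not shaped. Clusters were named from marker lists that also left them out. The mature dendritic-like class held 133 cells in 2 clusters, the cDC1-like class 187 cells, an interferon-stimulated class 56, a macrophage-like class 56, a fibroblast- or endothelial-like class 40 and a T cell-like class 14. The other 69 cells stayed unnamed. In the interferon-stimulated class, cDC1 identity markers were also found in 56.0% of cells on average, against 63.1% for interferon-stimulated markers. That class is not part of results limited to cDC1-like and mature dendritic-like cells. Mature dendritic-like cells carried 6.55 of the 10 genes on average, fibroblast- or endothelial-like cells 2.55, macrophage-like cells 1.70, T cell-like cells 1.36, interferon-stimulated cells 0.875 and cDC1-like cells 0.55. Unnamed cells carried 0.986 on average. Of the 40 fibroblast- or endothelial-like cells, 20 held 3 to 6 of the genes. Of the 79 cells with 7 or more genes, 77 were mature dendritic-like and 2 macrophage-like. Of the 187 cDC1-like cells, 113 had none. Clusters come from genes that move with these 10, so the contrast between classes is a description and carries no test.

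Ccr7 marked the mature dendritic-like class most completely. It was found in 120 of its 133 cells (90.2%, exact 95% interval 83.9 to 94.7), at 3599 ± 624 CPM (SD over the 11 plates with at least 5 such cells, range 2521 to 4679). In cDC1-like cells it was found in 9.09%, at 0.607 CPM on average, with a median of 1 UMI in the cells that held it. In interferon-stimulated cells it was found in 28.6%, and in 14.3% after thinning to 20000 UMIs per cell. In fibroblast- or endothelial-like cells, which are not known to use Ccr7, it was found in 5%. Thinned likewise, Ccr7 was found in 89.0% of mature dendritic-like cells and in 3.24% of cDC1-like cells. The median depth was 119071 UMIs in mature dendritic-like cells, 166574 UMIs in cDC1-like cells and 207992 UMIs in fibroblast- or endothelial-like cells. The higher share in mature dendritic-like cells thus came with the lower depth.

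Fscn1 lies on chromosome 5 (chr5:142960343-142973185, GRCm38, + strand). It was found in 72.2% of mature dendritic-like cells, at 674 ± 235 CPM (SD, n = 11 plates, 309 to 1069). It was found in 0 of 187 cDC1-like cells, which allows a share of up to 1.60%. Apart from Il4i1, it was the only gene of the set with no UMI in that class. Outside the dendritic-like cells it was found in 45% of fibroblast- or endothelial-like cells, at 64.5 ± 26.0 CPM (SD, n = 3 plates). Those cells use fascin in their own protrusions. Fscn1 was also found in 20.3% of the 69 unnamed cells, and in 56.5% of a cluster of 23 of them.

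Samsn1 lies on chromosome 16 (chr16:75858793-76022281, GRCm38, - strand). It was found in 87.2% of mature dendritic-like cells, at 1808 ± 691 CPM, and in 7.49% of cDC1-like cells. It was also found in 7 of the 14 T cell-like cells, and Ccr7 in 5 of them; both genes are used by lymphocytes.

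The start-site windows of Fscn1 and Samsn1 are printed because Fscn1 was found in no cDC1-like cell and Samsn1 was the gene of the set closest to Ccr7 across cells, and because short motifs were found in each. They run 250 bases before to 50 bases after the start site, 5′ to 3′ on the strand of the gene, and come from RefSeq (GRCm38.p6). The Samsn1 window lies inside the gene span given above and not at its 5′ end, chr16:76022281 on the - strand. Which start site these cells used was not tested. Capitals mark the motifs.
Fscn1, chr5:142960105-142960404, + strand: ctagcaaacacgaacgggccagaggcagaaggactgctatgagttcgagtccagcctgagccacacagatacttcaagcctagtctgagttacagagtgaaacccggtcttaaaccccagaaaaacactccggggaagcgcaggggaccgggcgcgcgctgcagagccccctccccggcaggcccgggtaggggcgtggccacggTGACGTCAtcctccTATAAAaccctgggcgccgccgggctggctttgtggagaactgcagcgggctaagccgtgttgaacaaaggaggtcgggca
Samsn1, chr16:75909217-75909516, - strand: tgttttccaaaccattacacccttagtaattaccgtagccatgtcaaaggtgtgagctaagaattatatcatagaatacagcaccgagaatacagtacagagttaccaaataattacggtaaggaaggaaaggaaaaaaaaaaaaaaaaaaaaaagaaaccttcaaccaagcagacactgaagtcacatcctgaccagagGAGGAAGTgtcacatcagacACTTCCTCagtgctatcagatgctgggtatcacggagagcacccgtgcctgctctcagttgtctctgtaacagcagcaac
In Fscn1 the capitals are the cyclic AMP response element TGACGTCA at -45 and the TATA box TATAAA at -31, counted from the start site. In Samsn1 they are the PU.1 motif GAGGAAGT at -50 and its reverse complement at -30. These 3 motifs were added after the windows had been read. Searched on both strands, they were found in 1.79% (TGACGTCA), 13.6% (TATAAA) and 3.20% (GAGGAAGT) of 32851 RefSeq windows of the same kind. The kappaB motif, the interferon-stimulated response core and the AP-1 motif TGANTCA were found in 0 of the 9 windows that matched 7 of the 10 genes, and in 4.51, 3.44 and 7.81% of all windows. PU.1 was also matched once in the window of Il4i1, at -133. A match is a run of letters and no evidence of binding.

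The other genes ranged between the broad and the narrow. Cacnb3 (76.7%), Tmem123 (77.4%) and Socs2 (63.2%) were found in most mature dendritic-like cells, at 1344 ± 335, 1077 ± 319 and 809 ± 276 CPM (SD, n = 11 plates). In cDC1-like cells they were found in 2.67, 15.5 and 2.14%. Marcksl1 and Anxa3 were each found in 52.6% of mature dendritic-like cells, at 432 ± 131 and 738 ± 247 CPM, and in 4.81 and 1.07% of cDC1-like cells. Anxa3 was found in 0 of the 56 interferon-stimulated cells, which allows a share of up to 5.36%. Exons of Anxa3 overlap a predicted transcript, Gm42603, on the same strand.

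Cd63 stood apart from the rest as the least selective gene. It was found in 82.0% of mature dendritic-like cells (2712 ± 938 CPM, SD, n = 11 plates), but also in 97.5% of fibroblast- or endothelial-like cells (2697 ± 603 CPM, n = 3 plates) and in 67.9% of macrophage-like cells (1056 ± 305 CPM, n = 4 plates). In cDC1-like cells it was found in 12.3%. Of the 69 unnamed cells 34.8% held Cd63 (1046 ± 963 CPM, n = 6 plates), and in a cluster of 23 of them 78.3% did. Cd63 in the sum over a plate thus came from stromal, macrophage-like and unnamed cells as well as from mature dendritic-like ones.

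**Figure D1:**
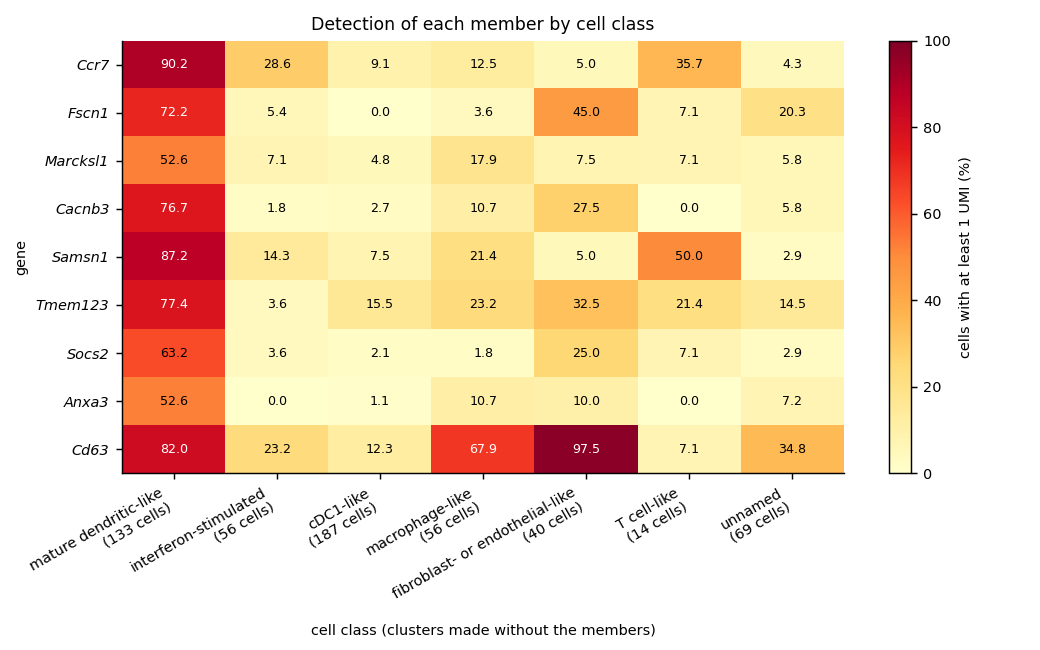
Share of cells with at least 1 UMI of each of the 9 genes found in more than 1 cell (percent, in colour and print) by class of cells, clustered without these genes. Ccr7 reaches 90.2% in mature dendritic-like cells and 9.09% in cDC1-like cells, Fscn1 is at 0 in cDC1-like cells, and Cd63 reaches 97.5% in fibroblast- or endothelial-like cells.

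The mature dendritic-like class was itself split in a larger cluster of 103 cells and a smaller one of 30. Ccr7 was found in 90.3% and 90.0% of them. Fscn1 was found in 80.6% of the larger and 43.3% of the smaller cluster, Cd63 in 89.3 and 56.7%, and Anxa3 in 58.3 and 33.3%. Marcksl1 ran the other way, with 49.5 and 63.3%, and so did Tmem123, with 75.7 and 83.3%. Within the class, the number of genes found moved with depth. The 77 cells with 7 or more had a median of 142104 UMIs and 1470 genes, and the 50 cells with 3 to 6 had a median of 59344 UMIs and 754.5 genes. The part of depth in the detection within this class was not tested apart from the thinned values.

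The 9 genes found in more than 1 cell were detected in the same cells. The phi coefficient, the correlation of presence and absence over the 555 cells, was positive for all 36 pairs, with a median of 0.45. It was highest for Cacnb3 with Fscn1 (0.63) and lowest for Cd63 with Marcksl1 (0.27). The median over partners was highest for Cacnb3 (0.54), Fscn1 (0.52) and Socs2 (0.50), and lowest for Cd63 (0.39) and Marcksl1 (0.37). With a minimum of 10 UMIs to call a gene present, the pairs ran between 0.27 and 0.71 with a median of 0.51. In cells thinned to 20000 UMIs they ran between 0.27 and 0.69 with a median of 0.50. Ccr7 with Samsn1 was then the highest pair.

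Within the mature dendritic-like class the same pairs were looser. Phi ran between -0.09, for Anxa3 with Marcksl1, and 0.45, for Cd63 with Fscn1, with a median of 0.23 over 133 cells. The levels of the genes in these cells, centred on each plate, correlated with r between -0.14 and 0.43 and a median of 0.18. The median phi was lower than that over all cells. The points share plates and depth, so these coefficients are descriptions.

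**Figure D2:**
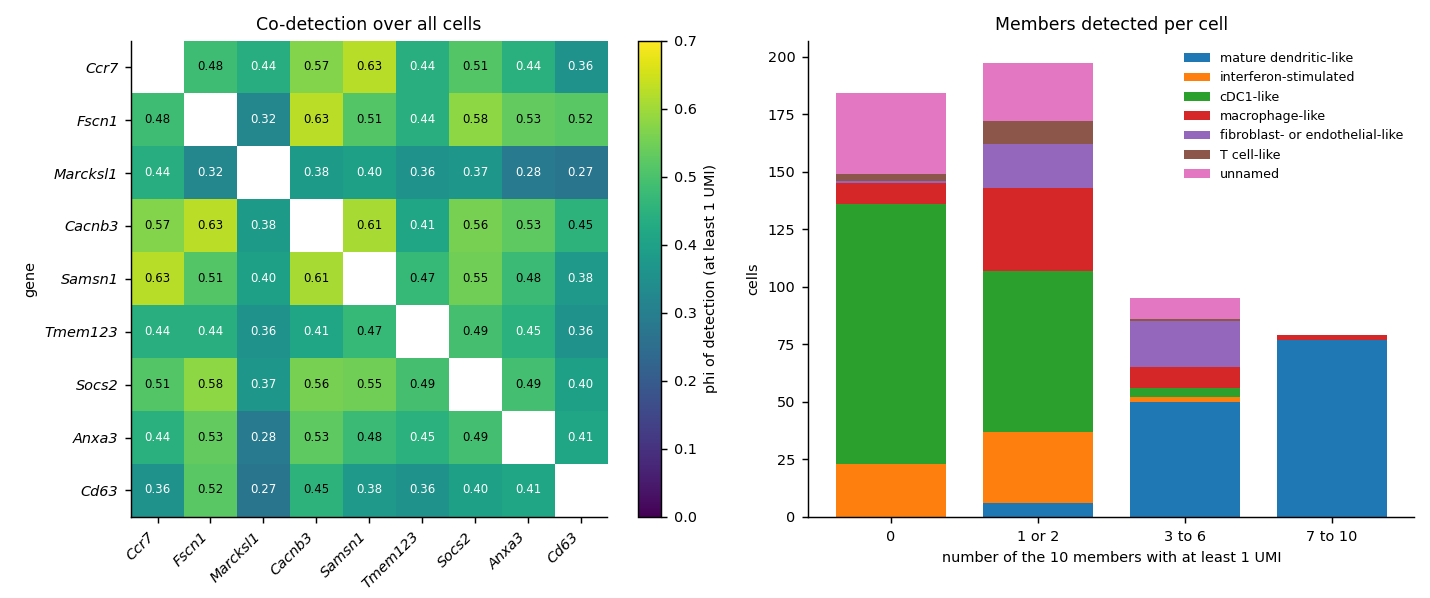
Left, phi coefficient of co-detection for the 36 pairs of the 9 genes found in more than 1 cell, over all 555 cells, with every pair between 0.27 and 0.63. Right, number of cells by how many of the 10 genes they held, coloured by class, where 77 of the 79 cells with 7 to 10 are mature dendritic-like.

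Taking Ccr7 as the anchor, 7350 genes found in at least 5% of cells were ranked by the Pearson correlation of their log level, centred on each plate, with that of Ccr7 over the 555 cells. The chemokine Ccl22 was closest (r = 0.77), then Samsn1 (0.76), the serpin Serpinb6b (0.72), the transcription factor Stat4 (0.72) and Cacnb3 (0.70). Serpinb9 (0.69), the calcitonin receptor partner Ramp3 (0.68), Tmem123 (0.66), Fscn1 (0.65) and the inhibitory ligand Cd200 (0.65) completed the first 10. Socs2 came next at rank 11 (0.64) and Anxa3 at rank 30. All 8 other genes of the set that could be ranked were within the first 50, as were 16 of 41 other maturation genes. The median over all ranked genes was -0.05. The ranking uses the same cells as the co-detection and adds no separate evidence for it.

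The 170 cells with a Ccr7 UMI were then set against the 385 cells without one, with the counts summed per plate and the plate as a block (edgeR). This asks which genes travel with the receptor inside each tumour. Of the 9 other genes, 8 passed the filter on low counts and Il4i1 did not. All 8 were higher in Ccr7-positive cells at an adjusted p under 0.05, where 2.61% of the 6601 genes tested were called higher and 7.41% lower. Of the 8, all but Cd63 were higher in every one of the 14 plates, as were 1.12% of all genes tested. Ccr7 itself, at 2582 ± 884 CPM in the positive cells (SD, n = 14) and 0 in the negative cells, was set by the split and not tested. The genes were chosen as companions of Ccr7 with earlier results of these data known, so the count is no independent evidence.

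The actin bundler Fscn1 lay between 213 and 1119 CPM in Ccr7-positive cells, with a median of 373, and between 0 and 52.5 CPM in Ccr7-negative cells, with a median of 15.4. The lowest positive value stood above the highest negative one. The means were 468 ± 266 CPM in Ccr7-positive and 18.3 ± 16.7 CPM in Ccr7-negative cells (SD, n = 14 plates each), a ratio of 25.7 (adjusted p = 0.000123). Socs2 gave a ratio of similar size, with 207 to 1464 CPM (median 529.6) in Ccr7-positive cells and 0 to 91.3 CPM (median 3.61) in Ccr7-negative cells. Its means were 593 ± 302 CPM in Ccr7-positive and 22.9 ± 32.0 CPM in Ccr7-negative cells, a ratio of 25.9 (adjusted p = 0.00117). In 5 plates no Socs2 was found in their Ccr7-negative cells, so the ratio rests on the means over all plates.

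The adaptor Samsn1 lay between 465 and 2221 CPM (median 1069) in Ccr7-positive cells and between 0 and 265 CPM (median 36.0) in Ccr7-negative cells. These ranges did not overlap either, and the ratio of means was 20.8 (1147 ± 512 CPM in Ccr7-positive and 55.1 ± 67.2 CPM in Ccr7-negative cells, adjusted p = 0.000159). Tmem123 averaged 732 ± 316 CPM in Ccr7-positive and 66.5 ± 50.6 CPM in Ccr7-negative cells, a ratio of 11.01 (adjusted p = 6.92e-05). Cacnb3 averaged 834 ± 338 CPM in Ccr7-positive and 58.9 ± 75.4 CPM in Ccr7-negative cells, a ratio of 14.2 (adjusted p = 0.00279). Both also had ranges that did not overlap. Marcksl1 and Anxa3 were higher in all 14 plates although their ranges over plates overlapped. Marcksl1 averaged 300.2 ± 129 CPM in Ccr7-positive and 31.3 ± 34.8 CPM in Ccr7-negative cells (ratio 9.59, adjusted p = 0.00496). Anxa3 averaged 486 ± 250 CPM in Ccr7-positive and 31.6 ± 32.2 CPM in Ccr7-negative cells (ratio 15.4, adjusted p = 0.00779).

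Cd63 showed the smallest ratio of the 8. It lay between 540 and 3331 CPM (median 1786) in Ccr7-positive cells and between 0.354 and 1156 CPM (median 574) in Ccr7-negative cells. The ranges overlapped, and 13 of 14 plates were higher on the positive side. Its means were 1786 ± 798 CPM in Ccr7-positive and 580 ± 378 CPM in Ccr7-negative cells, a ratio of 3.08 (adjusted p = 0.0359). This call was lost without the filter on low counts (adjusted p = 0.0536), without the plate block (0.0972), with genes per cell as a covariate (0.0606) and in 9 of the 14 fits that left out 1 plate (0.0555 to 0.0672). Fibroblast markers moved the other way. The 6 tested of 10 summed to 0 to 3164 CPM in Ccr7-positive and 68.6 to 8215 CPM in Ccr7-negative cells, and 5 were called lower. The 9 tested of 12 macrophage markers summed to 294 to 2888 CPM in Ccr7-positive and 738 to 6729 CPM in Ccr7-negative cells, and 1 was called lower. Their part in the Cd63 ratio was not tested.

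The median log2 ratio of mean CPM was 3.85 for the 8 genes, against -0.34 over all genes tested. The fitted log2 fold changes had a median of -1.27 over all genes and are inflated where plates are at 0, so ratios of means are given in their place. The Irf1 transcript was itself higher in Ccr7-positive cells, with 247 to 941 CPM (median 558) in Ccr7-positive and 39.0 to 299 CPM (median 140.3) in Ccr7-negative cells. It was higher in 14 of 14 plates (means 542 ± 203 CPM in Ccr7-positive and 160 ± 82.4 CPM in Ccr7-negative cells, adjusted p = 0.000159). Irf1 encodes a transcription factor of interferon responses.

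**Figure D3:**
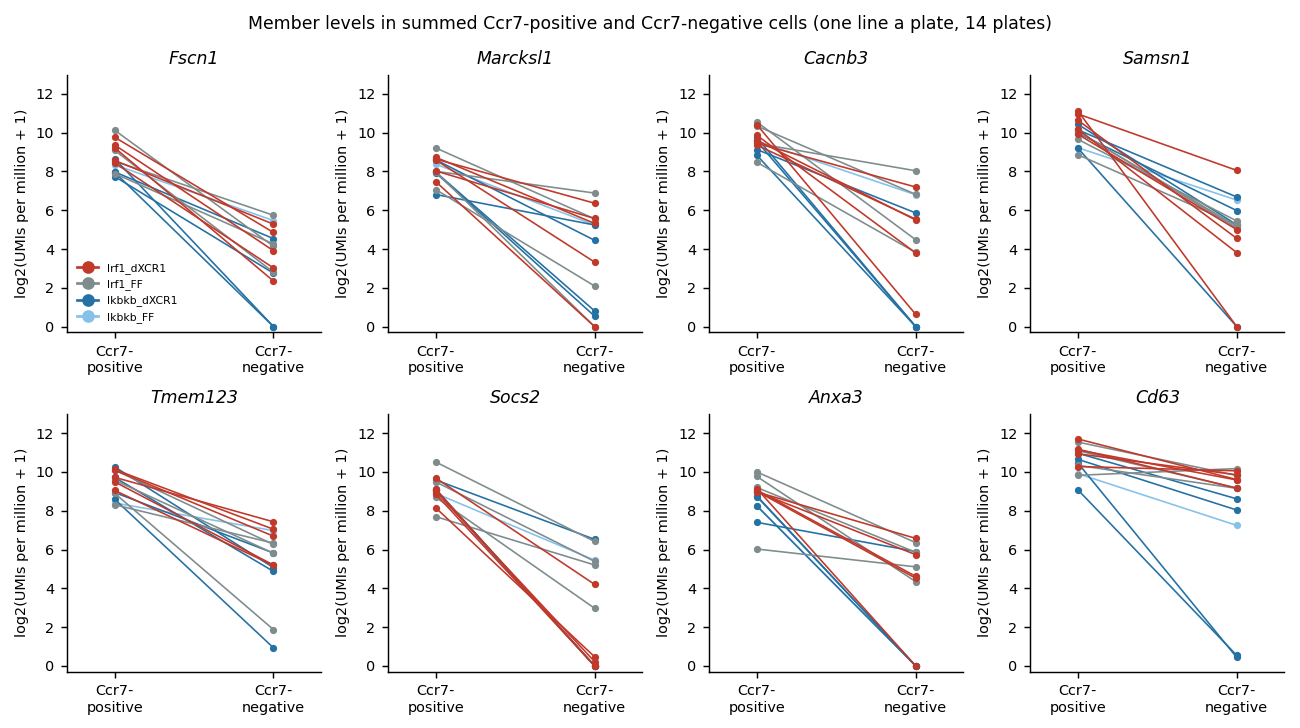
Level as log2(CPM + 1) of 8 genes in Ccr7-positive and Ccr7-negative cells of each of the 14 plates, with a line for each plate coloured by genotype. Ccr7-positive cells are higher in every plate for all genes but Cd63, which is higher in 13 of 14.

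Other maturation genes moved the same way. Of 46 in the list, 42 were tested and 25 were called higher in Ccr7-positive cells, with 0 lower and a median log2 ratio of 2.57. Cd83, which stabilises MHCII at the surface, averaged 2795 CPM in Ccr7-positive and 1051 CPM in Ccr7-negative cells (adjusted p = 1.06e-07). The chemokine Ccl22 averaged 1793 CPM in Ccr7-positive and 30.4 CPM in Ccr7-negative cells (2.72e-05). The signalling adaptor Traf1 averaged 1039 CPM in Ccr7-positive and 239 CPM in Ccr7-negative cells (1.91e-05). Rogdi averaged 688 CPM in Ccr7-positive and 112 CPM in Ccr7-negative cells (1.88e-05). All of these were higher in 14 of 14 plates.

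Genes of the general migration machinery were less uniform: 7 of 27 tested were called higher and 0 lower. The myosin Myo1g averaged 1026 CPM in Ccr7-positive and 249.6 CPM in Ccr7-negative cells (adjusted p = 3.19e-05). The actin-binding Lsp1 averaged 3240.2 CPM in Ccr7-positive and 1901 CPM in Ccr7-negative cells (0.00017). Both were higher in 14 of 14 plates. The cytoplasmic actins were higher in 13 of 14 plates each. Actg1 averaged 1409 CPM in Ccr7-positive and 825 CPM in Ccr7-negative cells (adjusted p = 0.00196), and Actb 4629 CPM in Ccr7-positive and 3282 CPM in Ccr7-negative cells (0.00199). Of 17 cDC1 identity genes, 4 were called lower and 0 higher. They were Rab7b (274 CPM in Ccr7-positive and 947 CPM in Ccr7-negative cells), Naaa (528 CPM in Ccr7-positive, 1507 CPM in Ccr7-negative), Ppt1 (623 CPM in Ccr7-positive, 1589.8 CPM in Ccr7-negative) and Ifi205 (1196 CPM in Ccr7-positive, 1837 CPM in Ccr7-negative), with adjusted p-values between 0.00795 and 0.0249. The call of Ppt1 was lost without Irf1_FF replicate 2 (0.052), Irf1_FF replicate 4 (0.0548) or the Ikbkb_FF plate (0.0555). Rab7b, Naaa and Ppt1 act in endosomes and lysosomes, and Ifi205 is an interferon-inducible gene.

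The flow-cytometry stainings recorded at the sort give a readout of these cells that does not come from RNA. They exist for 458 cells on 12 plates, and are lacking for Ikbkb_FF, for replicate 4 of Ikbkb_dXCR1 and for 12 cells of Irf1_FF replicate 4. Values are the arcsinh of the raw fluorescence. For each plate the median of Ccr7-negative cells was taken from that of Ccr7-positive cells, and the 12 differences were put to an exact sign-flip permutation test (two-sided).

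MHCII, the antigen-presenting molecule that dendritic cells move to their surface on maturation, was higher on Ccr7-positive cells. The difference was 0.97, 1.90, 2.10, 1.35 and 2.23 in replicates 1 to 5 of Irf1_dXCR1. It was 1.45, 1.05, 1.93 and 0.02 in replicates 1 to 4 of Irf1_FF, and 1.205, 1.79 and 0.06 in replicates 1 to 3 of Ikbkb_dXCR1. All 12 plates were positive, though replicate 4 of Irf1_FF and replicate 3 of Ikbkb_dXCR1 were close to 0. The plate medians averaged 10.12 in Ccr7-positive and 8.79 in Ccr7-negative cells, a mean difference of 1.34 ± 0.73 (SD, n = 12 plates). The exact permutation p was 0.000488, the smallest that 12 plates allow, and 0.000977 after Benjamini-Hochberg adjustment over the 2 stainings tested. Leaving out 1 plate at a time gave 1.26 to 1.46. In the cDC1-like and mature dendritic-like cells alone the difference was 1.19, with 10 of 12 plates positive (exact permutation p = 0.00293).

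The other genes gave smaller differences in the same direction, described without a test. Cells with Cacnb3 exceeded cells without it by 1.12 ± 0.93 in MHCII (SD, 11 plates with enough cells, 10 positive), and cells with Samsn1 by 1.05 ± 0.81 (10 of 11). Socs2 gave 0.99, Marcksl1 0.92, Tmem123 0.87, Fscn1 0.84, Anxa3 0.82 and Cd63 0.72. As a description over cells, with both measures centred on each plate, Pearson's r between a gene's level and MHCII was between 0.14 (Cd63) and 0.47 (Ccr7) over all 458 stained cells. Over the 109 stained mature dendritic-like cells r was 0.26 for Ccr7, 0.17 for Samsn1, -0.05 for Fscn1, -0.11 for Cacnb3 and -0.13 for Socs2, and for the other 4 it lay between -0.01 and 0.07. Over 147 stained cDC1-like cells r lay between -0.09 and 0.10 in the 8 genes with a value. Over all cells the number of genes found in a cell went with its MHCII staining. The median was 8.68 in cells with none, 8.70 with 1 or 2, 9.03 with 3 to 6 and 10.4 with 7 or more. These medians pool plates of different baseline. Within Irf1_dXCR1 they were 8.68, 8.81, 9.03 and 10.8, and within Irf1_FF 8.40, 8.53, 8.78 and 9.60. Within Ikbkb_dXCR1 they were 9.19, 9.16, 9.49 and 9.45, so that the 10 stained cells with 7 or more genes did not stand above the 8 with 3 to 6.

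**Figure D4:**
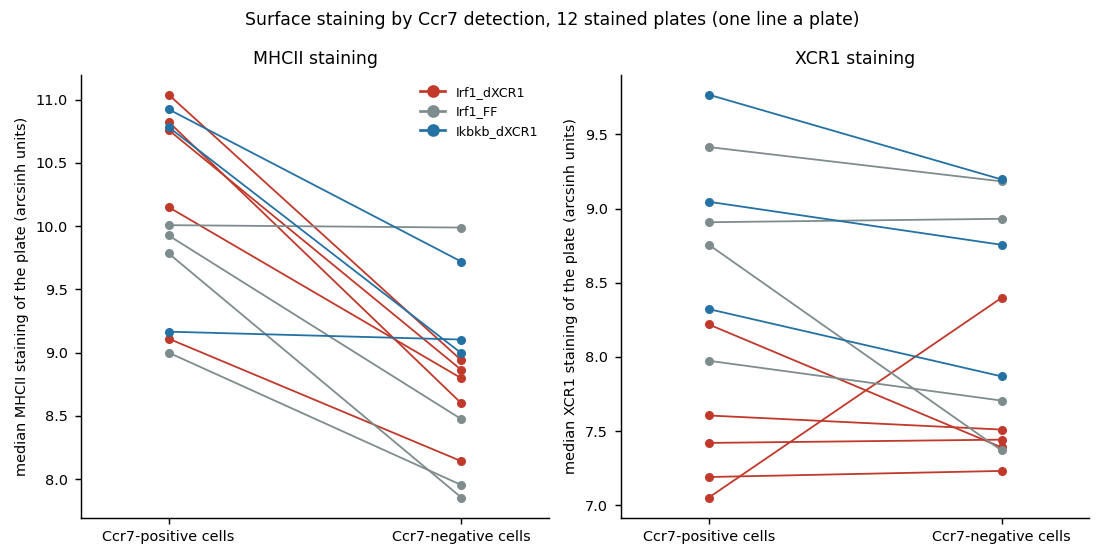
Median arcsinh staining of Ccr7-positive and Ccr7-negative cells per plate for MHCII and XCR1, with a line for each of 12 plates. MHCII is higher on Ccr7-positive cells in all 12 plates, and XCR1 in 8 of 12.

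When the cells were instead divided at the MHCII median of their plate, the level of every gene of the set was on average higher in the MHCII-high cells (233 cells) than in the MHCII-low cells (225 cells). With edgeR, however, 0 of the 9 tested were called, where 0.106% of 6602 genes were (7 genes, all higher). At an unadjusted p under 0.05 edgeR listed 458 genes, and 8 of the 9 were among them. DESeq2 called 521 genes and 8 of the 9, all but Cd63. The members' calls thus differed between the tools, and the size of the differences is given as measured.

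Ccr7 lay between 377 and 2164 CPM (median 1425) in MHCII-high cells and between 0 and 926 CPM (median 0.914) in MHCII-low cells. It was higher on the MHCII-high side in 12 of 12 plates, as 0.394% of all genes were, although the ranges overlapped. The means were 1353 ± 558 CPM in MHCII-high and 175 ± 309 CPM in MHCII-low cells (SD, n = 12 plates, adjusted p = 0.0701). It was called without the filter on low counts (adjusted p = 0.0153), with genes per cell as a covariate (0.0370), and without replicate 4 of Irf1_FF (0.0293) or replicate 3 of Ikbkb_dXCR1 (0.0416). Ccr7 was found in 46.8% of MHCII-high cells and 13.3% of MHCII-low cells. The median depth was 137689 UMIs in MHCII-high and 146997 UMIs in MHCII-low cells.

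The ratio of means was 7.46 for Samsn1, 5.24 for Cacnb3, 4.40 for Fscn1 and 4.06 for Anxa3, each higher in 11 of 12 plates. It was 3.65 for Socs2 and 3.57 for Tmem123, in 10 of 12, and 3.55 for Marcksl1, in 9 of 12. Cd63 averaged 1089 ± 511 CPM in MHCII-high and 869 ± 563 CPM in MHCII-low cells, a ratio of 1.25, with 9 of 12 plates higher. The composition of the 2 sets differed. Mature dendritic-like cells made up 39.1% of MHCII-high and 8% of MHCII-low cells, and fibroblast- or endothelial-like cells 2.15% of MHCII-high and 14.7% of MHCII-low cells. In sums over cells, fewer cells of a type and less RNA of a gene per cell cannot be told apart, and this holds for every plate sum given here.

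Of 41 other maturation genes tested, 3 were called higher in MHCII-high cells and 0 lower. They were Ccl22 (925 CPM in MHCII-high and 181 CPM in MHCII-low cells), Traf1 (749.7 CPM in MHCII-high and 203 CPM in MHCII-low cells) and Tbc1d4 (415 CPM in MHCII-high and 106 CPM in MHCII-low cells), a regulator of vesicle traffic. The migration gene Lsp1 was also called (2659 CPM in MHCII-high and 1707 CPM in MHCII-low cells). Each was higher in 11 of 12 plates, and each had an adjusted p of 0.0483, lost with upper-quartile scaling and in 10 of the 12 fits that left out 1 plate.

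XCR1, the chemokine receptor that defines cDC1, gave a smaller difference that did not pass the test. The plate medians averaged 8.31 on Ccr7-positive and 8.08 on Ccr7-negative cells, a difference of 0.22 ± 0.64 (SD, n = 12 plates, 8 positive; exact permutation p = 0.265, and 0.265 adjusted over the 2 stainings). Replicate 3 of Irf1_dXCR1 had the lowest difference, -1.35. Without it the difference was 0.37 (exact permutation p = 0.00781). Among cDC1-like and mature dendritic-like cells alone it was -0.33, with 3 of 12 plates positive (exact permutation p = 0.172). Mature dendritic-like against cDC1-like cells, a comparison that does not use Ccr7 and was added after the data were seen, gave -0.67, with 1 of 10 plates positive (exact permutation p = 0.0137). The sign of the XCR1 difference thus changed with the cells compared, and the reason was not tested. Over single genes it ran between -0.49 for Fscn1 and 0.35 for Anxa3.

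At the XCR1 median of each plate, 0 of 9 tested genes and 0% of 6634 genes were called by edgeR. At an unadjusted p under 0.05 there were 198, and DESeq2 called 206 genes and 0 of the 9. None of the 9 was higher in every plate, as 0.0904% of all genes were. Ccr7 averaged 832 ± 373 CPM in XCR1-high and 633 ± 369 CPM in XCR1-low cells, higher in 8 of 12 plates. Cd63 had the lowest unadjusted p of the 9, 0.0194 (adjusted p = 0.9995). It averaged 755 ± 421 CPM in XCR1-high and 1188 ± 536 CPM in XCR1-low cells and was higher in 4 of 12 plates. XCR1-high cells held 42.9% cDC1-like and 25.8% mature dendritic-like cells, and XCR1-low cells 20.9% cDC1-like and 21.8% mature dendritic-like cells. Fibroblast- or endothelial-like cells made up 3.43% of XCR1-high and 13.3% of XCR1-low cells, and macrophage-like cells 5.58% of XCR1-high and 14.7% of XCR1-low cells. The part of these shares in the Cd63 values was not tested.

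The genotypes were compared next, first over all cells of a plate. Between Irf1_dXCR1 and Irf1_FF, 0 of the 10 genes and 0% of 16203 genes were called by edgeR. At an unadjusted p under 0.05 there were 1272 genes and 0 of the 10, and DESeq2 called 100 genes and 0 of the 10. Ccr7 stood at 893, 569, 1045, 895 and 839 CPM in Irf1_dXCR1 replicates 1 to 5, against 174, 874, 1006 and 815 CPM in Irf1_FF replicates 1 to 4. The groups overlapped, with replicate 1 of Irf1_FF far below the other plates. The log2 fold change was 0.24 ± 0.42 (SE, adjusted p = 1).

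Fscn1 stood at 247, 108, 214, 104 and 148 CPM in Irf1_dXCR1 replicates, against 46.4, 174, 199.9 and 226 CPM in Irf1_FF replicates. The means were 164 ± 64.1 CPM in Irf1_dXCR1 and 161 ± 79.6 CPM in Irf1_FF plates, and the groups overlapped. Samsn1 showed the largest fold change of the 9 genes found in more than 1 cell. It stood at 433, 562, 688, 298 and 393 CPM in Irf1_dXCR1 replicates, against 92.2, 355, 399 and 230.0 CPM in Irf1_FF replicates. The groups overlapped (log2 fold change 0.82 ± 0.44, SE, adjusted p = 0.521). Cd63 was the most even, with 1059 to 1246 CPM (median 1202) in Irf1_dXCR1 and 905 to 1261 CPM (median 1030) in Irf1_FF plates. For the other 5 the log2 fold changes ran between -0.56 (Socs2) and 0.49 (Tmem123), with adjusted p-values between 0.970 and 1. None of the 10 genes had groups that did not overlap, where 1.24% of all genes did.

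Replicate 1 of Irf1_FF was the lowest plate of its group for every gene but Cd63 among those found in more than 1 cell. In that plate 4.65% of the cells were mature dendritic-like and 34.9% fibroblast- or endothelial-like. Without it the log2 fold change of Socs2 was -0.88 ± 0.41, that of Anxa3 -0.71 ± 0.31, that of Cacnb3 -0.58 ± 0.34 and that of Samsn1 0.53 ± 0.41 (SE), with adjusted p-values between 0.6895 and 0.853. The share of cells with a Ccr7 UMI averaged 29.3 ± 7.84% in Irf1_dXCR1 plates and 30.7 ± 12.3% in Irf1_FF plates (SD, n = 5 and 4). The difference was -1.36 percentage points (exact permutation test, two-sided, p = 0.857, where the smallest possible is 0.0159), and -6.94 without that plate (exact permutation p = 0.214).

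**Figure D5:**
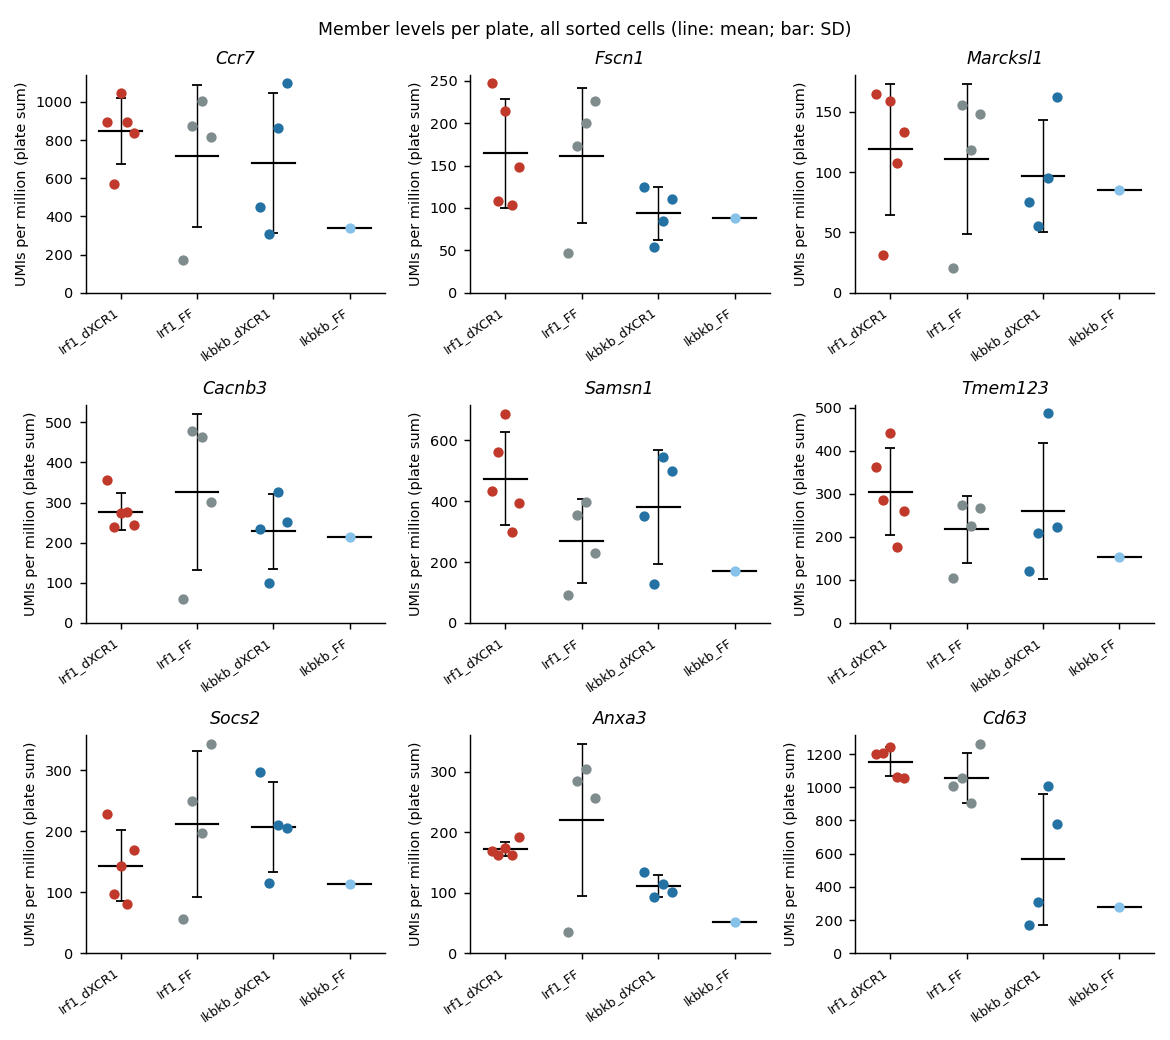
CPM of the 9 genes found in more than 1 cell over all cells of each plate, by genotype, with 1 point a plate, a line at the mean and a bar for the SD where there are replicates. The Irf1_dXCR1 and Irf1_FF plates overlap for every gene, and Ikbkb_FF is a single plate.

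To set the share of mature cells aside, the Irf1 comparison was repeated on mature dendritic-like cells alone, with plates that held at least 5. This left 5 Irf1_dXCR1 and 3 Irf1_FF plates, since replicate 1 of Irf1_FF had too few. Of the 10 genes, 0 were called, where 0.0836% of 9574 genes were (0.0209% higher and 0.0627% lower). At an unadjusted p under 0.05 there were 807 genes, and DESeq2 called 112 genes and 0 of the 10. Ccr7 stood at 3993, 2994, 3449, 4579 and 3786 CPM in Irf1_dXCR1 replicates 1 to 5, against 2893, 3320.0 and 4649 CPM in Irf1_FF replicates 2 to 4. These overlapped, with a log2 fold change of 0.05 ± 0.17 (SE, adjusted p = 1).

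Samsn1 was the one gene of the set whose groups did not overlap, as was so for 2.47% of all genes. It stood at 1916, 3056, 2269, 1418 and 1799 CPM in Irf1_dXCR1, against 1106, 1353 and 1209.8 CPM in Irf1_FF. The log2 fold change was 0.77 ± 0.27 (SE), with an unadjusted p of 0.00492 and an adjusted p of 0.517. Leaving out 1 plate at a time gave 0.58 to 0.89, so the sign held while the call was not reached. Socs2 averaged 658 ± 253 CPM in Irf1_dXCR1 and 1029.7 ± 492.99 CPM in Irf1_FF. Cacnb3 averaged 1199.9 ± 322 CPM in Irf1_dXCR1 and 1551 ± 98.1 CPM in Irf1_FF, and Anxa3 771 ± 185 CPM in Irf1_dXCR1 and 1015 ± 108 CPM in Irf1_FF. Fscn1 averaged 680.2 ± 218 CPM in Irf1_dXCR1 and 826 ± 349.8 CPM in Irf1_FF (SD, n = 5 and 3). All of these overlapped between the groups and did not pass the test.

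Tmem123 averaged 1135 ± 193 CPM in Irf1_dXCR1 and 921 ± 237 CPM in Irf1_FF, and Cd63 averaged 2852 ± 1156 CPM in Irf1_dXCR1 and 2585 ± 638 CPM in Irf1_FF. Marcksl1 averaged 400.0 ± 130.1 CPM in Irf1_dXCR1 and 426 ± 191 CPM in Irf1_FF, with replicate 2 of Irf1_dXCR1 at 169 CPM well below its group. In the same cells 3 of 46 other maturation genes were called lower and 0 higher. The chemokine Ccl5 averaged 602 CPM in Irf1_dXCR1 and 3208 CPM in Irf1_FF (adjusted p = 1.65e-08), and the IL-12 subunit Il12b 1425 CPM in Irf1_dXCR1 and 3523 CPM in Irf1_FF (0.00076). Bcl2l14 averaged 149 CPM in Irf1_dXCR1 and 1244 CPM in Irf1_FF (0.0239). Whether these genes differ from Ccr7 and its companions in their response was not tested. All 3 were lower under every setting run on these cells. Their calls were lost with DESeq2, with upper-quartile scaling, with the Ikbkb plates left out of the fit, with at least 10 mature cells per plate and in cells with a Ccr7 UMI, where adjusted p-values lay between 0.153 and 1. The call of Il12b was also lost without replicate 4 of Irf1_FF (0.064), and that of Bcl2l14 without replicate 2 of Irf1_dXCR1 (0.0511).

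Between Ikbkb_dXCR1 and Ikbkb_FF, 0 of the 10 genes and 0% of 16203 genes were called by edgeR. At an unadjusted p under 0.05 there were 707 genes, and DESeq2 called 1180 genes. The comparison rests on 1 control plate, which the fit assumes to vary like the other groups. Ccr7 stood at 447, 305, 863 and 1097 CPM in Ikbkb_dXCR1 replicates 1 to 4, against 339 CPM in Ikbkb_FF. Samsn1 stood at 351, 129, 547 and 498 CPM in Ikbkb_dXCR1, against 172 CPM in Ikbkb_FF. In both genes the control lay inside the range of the 4 plates. The control mouse was 8 weeks old, and the Ikbkb_dXCR1 plates of that age, replicates 1 and 2, lay on either side of it for Ccr7 and Samsn1, and also for Cd63 (167 and 308 CPM, against 281 CPM in Ikbkb_FF), Tmem123 (120.2 and 208 CPM, against 154 CPM), Cacnb3 (234 and 99.8 CPM, against 215 CPM) and Fscn1 (125 and 54.3 CPM, against 88.7 CPM). The highest values of Ccr7, Samsn1, Cd63 and Tmem123 came from replicates 3 and 4, which were from mice of 6 weeks. For Socs2 (297, 116, 210.5 and 205 CPM in Ikbkb_dXCR1, against 114 CPM in Ikbkb_FF) and Anxa3 (93.0 to 135 CPM in Ikbkb_dXCR1, against 52.3 CPM in Ikbkb_FF) all 4 Ikbkb_dXCR1 plates lay above the control. The log2 fold changes of these 2 genes were 0.86 ± 0.84 and 1.08 ± 0.84 (SE), each with an adjusted p of 1. The log2 fold changes of the 9 genes found in more than 1 cell lay between 0.08 (Fscn1) and 1.15 (Samsn1), none called. Their sign was not stable: against all 5 control plates it turned negative for Fscn1, Marcksl1, Cd63, Cacnb3 and Anxa3, and with 1 plate left out for Fscn1, Marcksl1 and Cacnb3. T cell markers summed to 44.9 to 410 CPM in Ikbkb_dXCR1 plates and to 652 CPM in Ikbkb_FF, and the cDC1-like share was 50, 69.2, 18.4 and 19.6% in Ikbkb_dXCR1 replicates 1 to 4 and 67.6% in Ikbkb_FF. The part of age and of these shares in the values was not tested.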

How the data were processed

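The deposited table holds UMI counts, whole numbers per gene and cell. Per the labels' protocols, cells were sorted into 96-well plates and a template-switching oligonucleotide tagged the 5′ end of each transcript, so that a transcript gives 1 tag whatever its length. Per the submitters' processing notes, bcl2fastq, STAR 2.5.3a, HTSeq 0.9.1 and GRCm38 were used. A second deposited table gives the stainings as an arcsinh score and the fractions of mitochondrial and spike-in UMIs that the authors computed. An arcsinh of 0 marks a cell without staining and was left out. The authors' annotation marks 0 cells as filtered out and 0 wells with several cells, so no doublet caller was run and no cell was removed. No cell name occurred in more than 1 row (0 repeats).

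The plate was the replicate, and replicate numbers follow accession order. Levels are CPM, counts scaled to a total of 1000000 per sum, TMM-scaled for sums that were tested and unscaled for classes of cells. Sums were filtered by filterByExpr and tested by the quasi-likelihood test of edgeR 4.0.16 (R 4.3.3, limma 3.58.1). P-values were Benjamini-Hochberg adjusted over all genes tested, with a threshold of 0.05. Genotypes were compared in a joint fit of the Irf1 and Ikbkb plates, so plates outside a comparison also entered its estimate of spread. The joint fit held 14 plates over all cells and 11 plates in mature dendritic-like cells. Splits within plates had the plate as a block and used plates with at least 3 cells on each side. For stainings, a gene's 2 medians were compared where at least 6 stained cells were on the plate and 3 on each side. DESeq2 1.42.0 was an alternative. Clusters came from scanpy 1.11.5 (Leiden resolution 1 on 15 neighbours and 15 components of the 2000 most variable genes, counts scaled to 10000 a cell), without the 10 genes. A cluster was named where its markers were found in at least 50% of its cells on average, a rule set after the clusters were seen. Permutation tests were exact (scipy 1.17.1), and shares carry exact 95% intervals or, for a count of 0, the share that 3 cells would give, which cover counting error only. The fit was run on simulated counts with known changes for the Irf1 comparisons and for the Ccr7 and MHCII splits. Those counts had a fixed spread and no plate effect. The XCR1 split and the Ikbkb comparison were not simulated.

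The 10 genes and the lists of other genes were chosen with earlier results of these data known. Other genes are named by rule: the targeted genes, the 10 with the highest correlation with Ccr7, and up to 4 of a list with the smallest p. Alternatives covered the tool, scaling, filter, plates left out, cells compared, thinning and the block. The covariate of genes per cell, mature against cDC1-like cells and the larger mature cluster alone were added after seeing the data.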

Additional observations from a re-analysis of the deposited data

Results flagged for a closer look

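Of 57 groups of 4 or 5 plates in which the extreme plate was set against the rest, 2 had a plate far from the others by Dixon's criterion at 95%, where chance gives about 1 in 20. Marcksl1 in mature dendritic-like cells stood at 169 CPM in replicate 2 of Irf1_dXCR1, and the other 4 plates of that genotype lay between 433 and 477 CPM. That value comes from 7 cells. The mean number of the 10 genes found per cell was 1.86 in replicate 1 of Irf1_FF, and the other 3 plates of that genotype lay between 2.77 and 2.82. In that plate 34.9% of the cells were fibroblast- or endothelial-like and 4.65% mature dendritic-like, and the part of this in the number of genes was not tested.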

How the results depend on the processing

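All 8 genes kept their direction in Ccr7-positive cells under every setting run, and 0 of the 10 were called between genotypes under any. The number of the 9 genes called in MHCII-high cells was 8 with DESeq2, 1 without the filter, 1 in cDC1-like and mature dendritic-like cells alone, 1 with genes per cell as a covariate, and 0 to 1 with 1 plate left out.

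Counts over all genes moved more. DESeq2 called 100 genes for Irf1_dXCR1 over all cells, 1180 for Ikbkb_dXCR1, 112 in mature cells, 2802 in the Ccr7 split, 521 in the MHCII split and 206 in the XCR1 split. For Ikbkb_dXCR1, cDC1-like and mature cells alone gave 1. In mature cells the count was 2 with upper-quartile scaling (which put the median log2 fold change of all genes at 0.67), 0 with only the Irf1 plates, 1 with at least 10 mature cells, 0 in cells with a Ccr7 UMI and 6 to 14 with 1 plate left out. In the Ccr7 split it was 1090 at 10 UMIs or more, 1038 in thinned cells, 217 without the plate block, 425 with the covariate and 353 to 533 with 1 plate left out. In the MHCII split it was 0 with upper-quartile scaling, 67 without the filter, 0 for the top against the bottom of 3 equal parts of each plate (outer parts), 16 without the block, 17 in cDC1-like and mature cells, 32 with the covariate and 0 to 51 with 1 plate left out. The causes were not tested.

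The XCR1 staining difference was -0.33 in cDC1-like and mature cells, -0.67 for mature against cDC1-like cells and 0.12 to 0.37 with 1 plate left out. The difference in the Ccr7-positive share was 0.616 points at 10 UMIs or more, 1.01 in thinned cells, 4.10 in cDC1-like and mature cells and -6.94 to 2.38 with 1 plate left out.

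Uncalled log2 fold changes changed sign as follows. Irf1 over all cells gave Fscn1 -0.0020 with DESeq2 and -0.0017 with only the Irf1 plates, and Anxa3 0.025 in cDC1-like and mature cells. Ikbkb against all 5 control plates gave Fscn1 -0.66, Marcksl1 -0.14, Cd63 -0.72, Cacnb3 -0.43, Anxa3 -0.76 and the Ikbkb transcript 0.0040, which was 0.30 in cDC1-like and mature cells. Mature cells gave, with upper-quartile scaling, Fscn1 0.58, Marcksl1 0.40, Cacnb3 0.52, Socs2 0.16 and Anxa3 0.69. They gave Marcksl1 0.12 and Cd63 -0.14 with at least 10 cells, Fscn1 0.027 and Marcksl1 0.11 in cells with a Ccr7 UMI, and Ccr7 -0.019 and Anxa3 0.014 in the larger cluster. The XCR1 split gave, for these outer parts, Fscn1 -0.60, Tmem123 -0.27, Cacnb3 -0.093 and Socs2 -0.23, and Anxa3 0.12 without the block and 0.10 with the covariate. In cDC1-like and mature cells it gave Ccr7 -0.995, Fscn1 -1.52, Marcksl1 -1.24, Tmem123 -0.95, Samsn1 -0.94, Cacnb3 -1.12 and Socs2 -1.46. With 1 plate left out, Irf1 over all cells ran over Ccr7 -0.082 to 0.45, Fscn1 -0.28 to 0.25, Marcksl1 -0.24 to 0.35 and Cacnb3 -0.58 to 0.013. Ikbkb ran over Fscn1 -0.095 to 0.27, Marcksl1 -0.18 to 0.39 and Cacnb3 -0.14 to 0.34. Mature cells ran over Ccr7 -0.083 to 0.28, Fscn1 -0.49 to 0.12, Marcksl1 -0.32 to 0.34 and Cd63 -0.16 to 0.36. The XCR1 split ran over Marcksl1 -0.0019 to 0.57 and Anxa3 -0.63 to 0.12.

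No paired analysis was possible because replicate numbers follow accession order and pair no mice across genotypes. The single Ikbkb_FF plate could not be left out. With 18 to 59 cells per plate, a gene found in few cells carries a wide counting error, and 2 of the 4 Ikbkb_dXCR1 plates differ in age from the single Ikbkb_FF plate.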

Other observations

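Cells with Cd63 had a higher forward scatter, a measure of cell size, than cells without it in 12 of 12 plates, by 0.154 ± 0.115 on the arcsinh scale (SD), where Ccr7 gave -0.01 ± 0.12 with 4 of 12 plates positive. Fibroblast- or endothelial-like cells, in which Cd63 was found most often, had the highest median forward scatter of the classes (12.95), against 12.57 in mature dendritic-like and 12.55 in cDC1-like cells.

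The Xcr1 transcript was found in 15.9% of Ccr7-positive and 38.7% of Ccr7-negative cells. It was found in 5.06% of the 79 cells with 7 or more of the 10 genes and in 51.6% of the 184 cells with none. By genotype, the median XCR1 staining of cells with 7 or more and of cells with none was 7.61 and 7.51 in Irf1_dXCR1, 9.199 and 9.07 in Irf1_FF, and 8.68 and 8.18 in Ikbkb_dXCR1. These medians pool plates of different XCR1 baseline, so they are no comparison within plates.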
